A study of Mus musculus with 15 samples.

Results

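Chemokines are small secreted or membrane-anchored proteins that guide the movement and positioning of leukocytes, and they act through G protein-coupled receptors on the responding cell. Their names follow the spacing of the first cysteines, as CC, CXC, CX3C or C, and the atypical receptors Ackr1 to Ackr4 bind chemokines and take them up or carry them without G protein signalling. The epididymis, the duct in which sperm mature and are stored, holds resident macrophages and other leukocytes in and around its epithelium. The genes described here are the mouse Ccl, Cxcl, Ccr and Cxcr genes selected by symbol, together with Cx3cl1, Xcl1, Xcr1 and Ackr1 to Ackr4. They number 61 of the 41591 gene IDs counted, 40 of them ligands and 21 receptors, the latter including the 4 atypical receptors.

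Whole epididymides of 15 mice aged 7 weeks were sequenced as stranded mRNA libraries, 1 library per numbered animal. There were 5 wild-type mice (WT), 5 mice labelled Plag1 -/+ (HET) and 5 labelled Plag1 -/- (KO). Plag1 encodes a zinc finger transcription factor, and the comparisons ask how the organ's transcripts differ with the number of intact alleles. The strain label reads Brown Swiss for all mice, and the labels name no further allele, litter or collection day, nor the part of Plag1 that is disrupted.

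Libraries held between 20304440 and 41957608 counts. On the counts-per-million scale (CPM), Plag1 itself lay at 11.9, 13, 12, 12.5 and 14 in the WT libraries and at 8.17, 6.99, 7.9, 9.36 and 9.16 in the KO libraries, a log2 fold change of -0.609 ± 0.102 (SE, adjusted p = 0.00493, edgeR), with no overlap. In HET it lay at 9.62, 10.6, 10.5, 8.11 and 11.8, below every WT library and overlapping KO. Neither HET against WT (adjusted p = 0.981, edgeR) nor KO against HET (adjusted p = 0.127, edgeR) passed for Plag1. Principal cell markers, which define the epididymal epithelium, summed to between 78200 and 103000 CPM in the 15 libraries. The libraries KO-738, HET-693, KO-739 and KO-695 stood apart. In KO-738 1.29% and in HET-693 1.30% of counts fell on ribosomal RNA genes, against at most 0.509% elsewhere, and KO-739 had skeletal muscle markers summing to 3950 CPM, against at most 84.7 in WT and HET. In KO-695 fat cell markers summed to 193 CPM, against at most 44.8 in WT and HET. KO-738 (72.6 CPM) and KO-694 (47.6 CPM) were also above that. Where nothing says more about the animals, p-values measure the spread between these libraries.

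The cysteine codons that name the ligand classes were found in the coding sequence of 38 ligand genes with a GENCODE M21 transcript. From codon 21 on, which leaves out most of the signal peptide, the first pair of cysteine codons was adjacent in 23 genes (CC), 1 codon apart in 13 (CXC) and 3 codons apart in 1 (CX3C). Xcl1 had no pair at any of these spacings, and its first cysteine codon from there on is marked alone. The following stretches show 1 example of each class and the 3 ligands with the highest length-scaled level in WT, in coding orientation, 5′ to 3′, with the cysteine codons in capitals.
Cxcl12: taccgaTGCcccTGCcggttcttcgagagc
Cxcl14: tccaagTGTaagTGTtcccggaaggggccc
Cx3cl1: acgaaaTGCgaaatcatgTGCgacaagatg
Ccl6: tcagacTGCTGCttctcttatgccacacag
Xcl1: agtagcTGTgtgaacttacaaacccagcgg
All these stretches are coding exon sequence. On GRCm38.p6 the genes lie at chr6:117168535-117181368 (Cxcl12, plus strand), chr13:56288643-56296811 (Cxcl14, minus), chr8:94772180-94782427 (Cx3cl1, plus), chr11:83587886-83593087 (Ccl6, minus) and chr1:164931644-164935522 (Xcl1, minus).

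Cxcl12 was the member with the firmest difference between genotypes, so the 250 bases before its start are shown (RefSeq, GRCm38.p6, chr6:117168285-117168534, plus strand, 5′ to 3′). Capitals mark the match to the published PLAG1 consensus, which lies on the minus strand 30 to 15 bases before the start.
Cxcl12 upstream: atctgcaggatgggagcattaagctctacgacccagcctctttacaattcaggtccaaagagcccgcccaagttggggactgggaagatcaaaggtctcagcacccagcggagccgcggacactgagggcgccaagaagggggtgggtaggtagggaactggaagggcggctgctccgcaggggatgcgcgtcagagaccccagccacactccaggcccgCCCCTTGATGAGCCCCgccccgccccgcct
The window had a GC content of 64.4%, against a median of 52.4% over all promoter windows of that length. It also held 5 matches to CCGCCC, the core of GC boxes, counted on both strands, and 2 of them overlap the PLAG1 match. The PLAG1 consensus was searched on both strands with a gap of 6 to 8 bases between its core and its G cluster. It matched 16.8% of 32851 windows and 9 of the 45 members with a window, namely Ccl1, Ccl19, Ccl21b, Ccl25, Ccl27a, Cx3cl1, Cxcl12, Cxcl2 and Cxcr4. CCGCCC matched 32.7% of all windows and 8 members, and a loose form of the NF-kB site (3 G and 2 C around 5 free bases) 45.8% of windows and 25 members. ACGTG matched 16.6% of windows and 7 members. These matches describe the letters of the windows and nothing of binding.

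Of the 61 members, 26 had enough counts to be tested, 16 ligands and 10 receptors. The other 35 were too low for a test, and none of these reached more than 1.19 CPM in a library, the value of Ccl24 in KO-739. The 5 members with the highest CPM were Cxcl12, Cx3cl1, Ackr4, Ackr3 and Cxcl14, and they held between 77.8% and 85.5% of all member counts in a library. The summed level of all members lay between 234 and 247.9 CPM in WT, between 228 and 251.7 in HET and between 256.2 and 300.2 in KO. By this sum each KO library was above each WT and HET library. Cxcl12 is a large part of it, with a mean of 61.9 CPM in WT and 80.3 in KO. Cx3cl1, Ackr4, Ackr3 and Cxcl14 overlapped between KO and the other genotypes. The sum without Cxcl12 was not taken, so this separation does not describe the family as a whole.

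Levels of different genes are compared on the transcripts-per-million scale (TPM), which divides counts by exon length. In WT the highest level was that of Cx3cl1, or fractalkine, a membrane-anchored ligand of Cx3cr1, at 39.9 ± 2.49 TPM (SD, n = 5). Cxcl14, a chemokine made constitutively by many epithelia, followed at 32.5 ± 10.6 TPM, and its libraries overlapped those of Cx3cl1. Then came the atypical receptor Ackr3 at 23.8 ± 0.938 TPM, Cxcl12 at 20.5 ± 0.661 and the atypical receptor Ackr4 at 16.5 ± 1.58, which did not overlap one another, although the highest Ackr4 library (19.2 TPM) came close to the lowest of Cxcl12 (19.3 TPM). The members with the highest counts were thus also the highest per length, and both receptors among them were atypical ones.

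**Figure D1:**
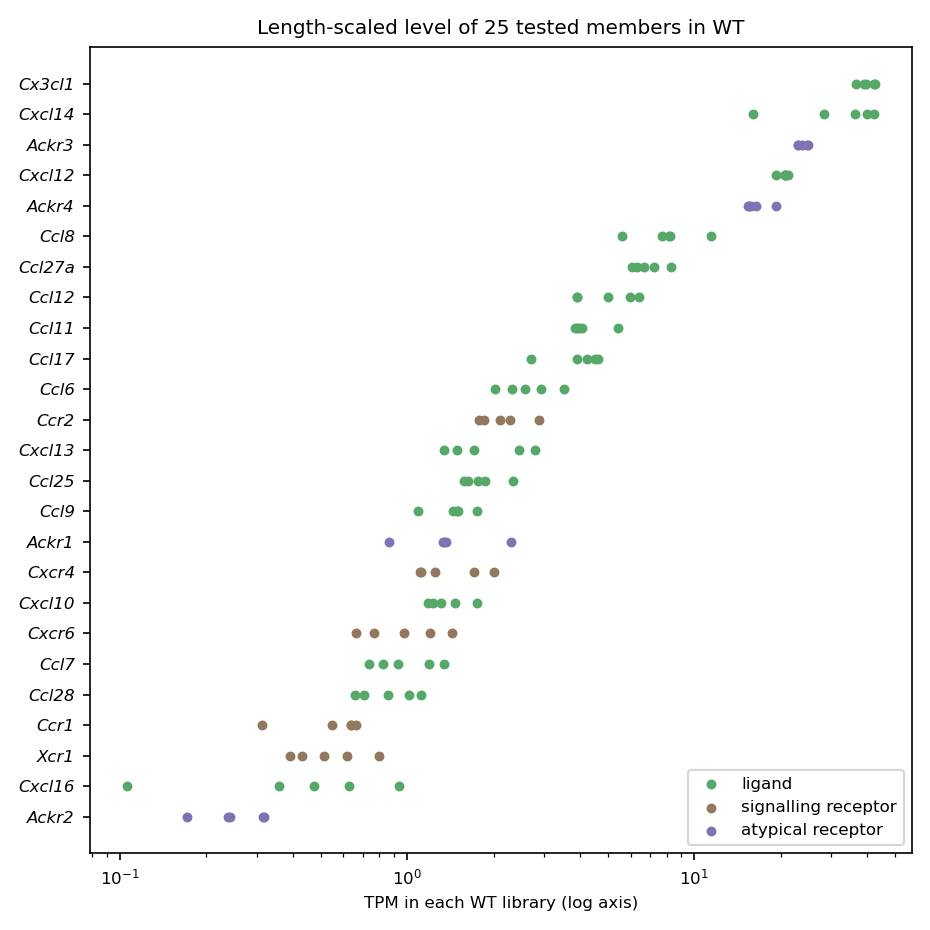
TPM of 25 of the 26 tested members in each of the 5 WT libraries on a log axis, ordered by their mean, with ligands, signalling receptors and atypical receptors in different colours. Cx3cl1, Cxcl14, Ackr3, Cxcl12 and Ackr4 stand above the rest, from Ccl8 at 8.21 TPM downwards.

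A second tier of CC ligands lay between 8.21 and 4 TPM in WT. It held Ccl8, a monocyte chemoattractant (8.21 ± 2.07 TPM), Ccl27a, a ligand of Ccr10 (6.92 ± 0.867), Ccl12, a ligand of Ccr2 (5.04 ± 1.16), the eosinophil chemoattractant Ccl11 (4.24 ± 0.658) and Ccl17, a ligand of Ccr4 (4 ± 0.775). Neighbours in this order did not differ beyond their spread. Among signalling receptors the highest in WT was Ccr2, the main receptor of inflammatory monocytes, at 2.18 ± 0.44 TPM, followed by Cxcr4 at 1.44 ± 0.402 TPM, Cxcr6 at 1.01 ± 0.314, Ccr1 at 0.56 ± 0.146 and Xcr1 at 0.551 ± 0.163. The last pair overlapped. Ackr2, which scavenges inflammatory CC chemokines, was the lowest tested member at 0.258 ± 0.0609 TPM.

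In KO against WT, Cxcl12 and Ccr1 were higher in KO and 0 members were lower, so 2 of 26 passed an adjusted p of 0.05 (edgeR quasi-likelihood test, Benjamini-Hochberg over 19388 genes). Over all tested genes 4.4% were higher and 1.6% lower. The log2 fold change was above 0 in 22 of 26 members (84.6%), against 46.8% of all genes. Its median was 0.365 over the members and -0.0121 over all genes. At an unadjusted p under 0.05 stood 10 members, against 23.6% of all genes. All 10 tested receptors and 12 of 16 tested ligands were above 0, with medians of 0.438 and 0.340.

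**Figure D2:**
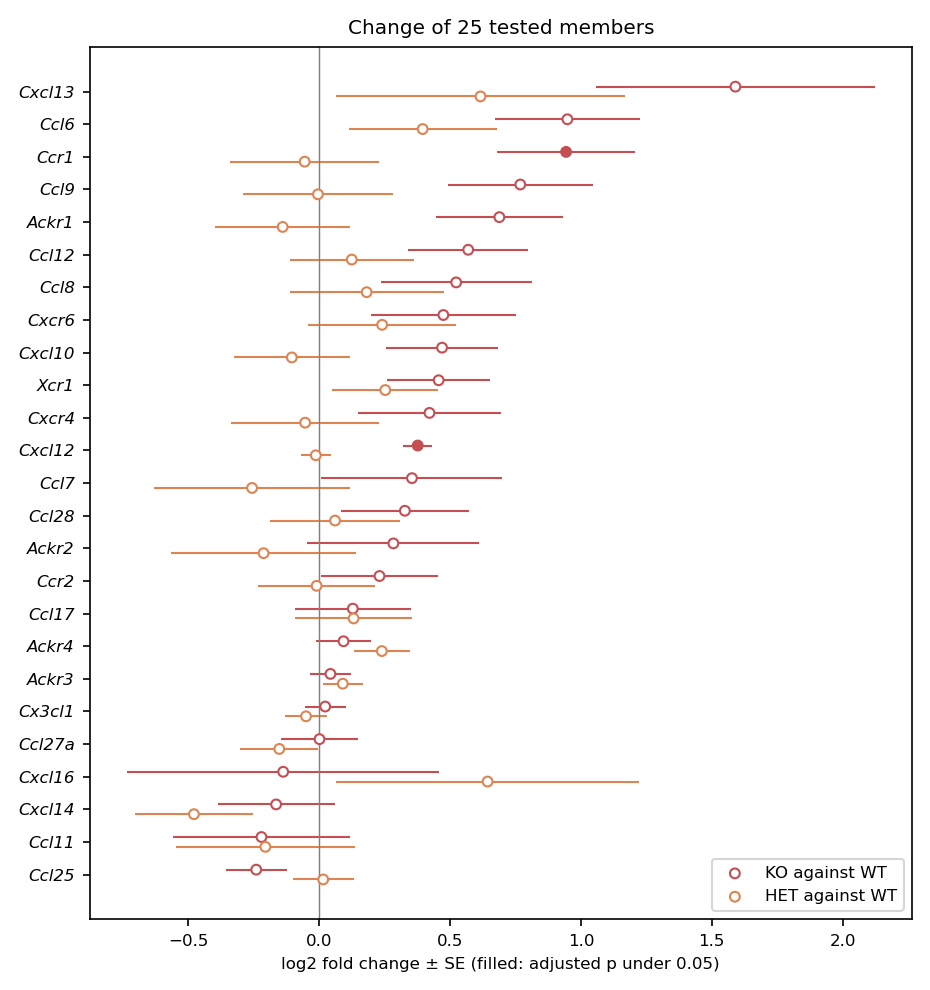
Log2 fold change ± SE of 25 of the 26 tested members for KO against WT and HET against WT, with filled points where the adjusted p was under 0.05. Cxcl12 and Ccr1 are filled for KO against WT, most other KO points lie right of 0, and the HET points scatter around 0.

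Cxcl12, which stromal cells secrete to retain and position cells that carry Cxcr4, separated KO completely from WT and HET. Its levels were 60.8, 64.3, 63.2, 58.6 and 62.3 CPM in WT, 64.1, 57.8, 65.6, 56.9 and 62 in HET, and 86.9, 75.5, 83.3, 72.3 and 83.4 in KO. Each KO library was above each WT and each HET library, and WT and HET overlapped throughout. Such a separation of KO above WT occurred in 1 of the 26 members, Cxcl12 itself, and in 2.84% of all tested genes, and KO below WT in 0 members and 1.37% of genes. The KO level was 1.3-fold that of WT (95% interval 1.19 to 1.41, log2 fold change 0.376 ± 0.0565, adjusted p = 0.00341, edgeR), and the mean rose from 20.5 to 27.1 TPM. Against HET, the KO difference was 0.389 ± 0.0564 (adjusted p = 0.0139, edgeR), while HET and WT differed by -0.0134 ± 0.0567 with an interval from -0.133 to 0.107. The KO call held in all 15 fits that left out 1 library, with log2 fold changes between 0.351 and 0.415, and was lost when animals numbered under 700 were left out (0.337, adjusted p = 0.13). The call against HET was lost without HET-735 (adjusted p = 0.0537), in a fit of these 2 genotypes only (adjusted p = 0.0816) and with animals numbered under 700 left out (adjusted p = 0.246). In each of these fits against HET, 0 of all tested genes were called. The same held for KO against WT with animals numbered under 700 left out.

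The receptors of Cxcl12 did not pass the test. Ackr3, which takes up Cxcl12, lay at 28.5, 28.5, 31.1, 30.7 and 28.2 CPM in WT and at 31.2, 29.8, 24.2, 31.6 and 34.9 CPM in KO. The groups overlapped and the interval of the log2 difference ran from -0.121 to 0.206. Cxcr4, the signalling receptor, lay at 0.958 ± 0.252 CPM in WT (SD, n = 5), at 0.917 ± 0.309 in HET and at 1.29 ± 0.486 in KO, the highest being KO-739 with 2.12. Its log2 fold change was 0.421 with an interval from -0.16 to 1, and 0.164 without KO-739.

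**Figure D3:**
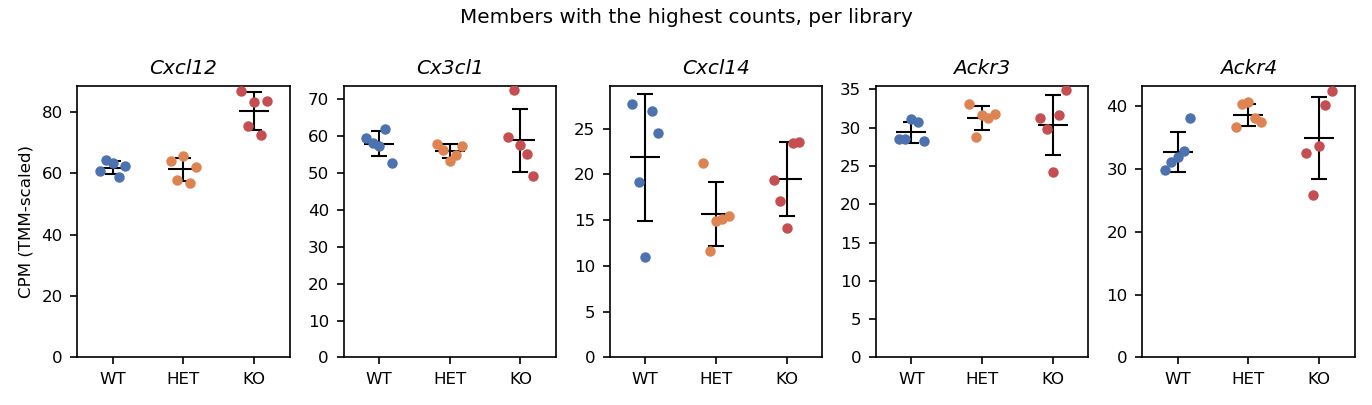
CPM of the 5 members with the highest counts in each library, with the mean and SD of each genotype as bars. The 5 KO libraries of Cxcl12 lie between 72.3 and 86.9, above all WT and HET libraries, and the genotypes overlap for Cx3cl1, Cxcl14, Ackr3 and Ackr4.

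Cx3cl1 did not pass the test in any comparison. It lay at 59.5, 58, 57.4, 61.8 and 52.7 CPM in WT and at 59.8, 72.4, 57.5, 55.2 and 49.2 CPM in KO, with the highest and the lowest library both in KO. Its KO interval ran from -0.143 to 0.188 on the log2 scale. Cx3cr1, its receptor, which the symbol rule does not take in, was higher in KO at 0.644 ± 0.105 (adjusted p = 0.00455, edgeR). It lay between 7.34 and 9.83 CPM in WT and between 9.93 and 14.2 in KO, without overlap. Against HET, which lay between 9.08 and 11.3 CPM, it did not pass (adjusted p = 0.0782, edgeR), and KO-738 lay within the HET range. Cx3cr1 marks mononuclear phagocytes, including those of the epididymal epithelium.

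Cxcl14 varied widely within genotypes. It lay at 27.7, 19.2, 11, 26.9 and 24.5 CPM in WT, at 21.2, 11.6, 14.9, 15.1 and 15.5 in HET and at 19.4, 17.1, 14.2, 23.4 and 23.5 in KO. WT-720 had the lowest value of all 15. The log2 difference was -0.165 ± 0.224 for KO against WT and -0.479 ± 0.226 for HET against WT, and neither passed (adjusted p = 0.707 and 0.981, edgeR).

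Among the leukocyte receptors, Ccr1 passed the test narrowly. This receptor of monocytes, macrophages and neutrophils lay at 0.653, 0.702, 0.679, 0.329 and 0.57 CPM in WT and at 0.5, 0.579, 0.423, 0.91 and 0.387 in HET. In KO it lay at 1.2, 1.23, 1.13, 0.658 and 1.4 CPM, so 4 KO libraries were above every WT and HET library and KO-738 was within both ranges. The difference was 0.943 ± 0.264 against WT (adjusted p = 0.0461, edgeR) and 0.999 ± 0.261 against HET (adjusted p = 0.0577, edgeR). The call against WT held in 2 of 15 fits that left out 1 library, those without HET-718 and without KO-738, with adjusted p up to 0.105 in the others. The 5 libraries of each genotype held 73, 79 and 192 counts of Ccr1 in WT, HET and KO, which limits its precision.

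Ccr2 showed no such separation, with values of 4.53, 7.27, 5.79, 4.46 and 5.26 CPM in WT and 6.5, 4.72, 5.66, 4.45 and 10.6 in KO. Its highest value came from KO-739, and its KO difference of 0.23 ± 0.222 (adjusted p = 0.579, edgeR) became -0.0314 without that library.

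Xcr1, which marks cross-presenting dendritic cells, lay between 0.652 and 1.32 CPM in WT and between 1.05 and 1.43 in KO, with a difference of 0.456 ± 0.198 (adjusted p = 0.175, edgeR). Cxcr6, a receptor of T and natural killer cells, lay between 0.461 and 1.04 CPM in WT, between 0.473 and 1.09 in HET and between 0.559 and 1.27 in KO. Neither passed, and both overlapped across all genotypes.

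Ackr1, the atypical receptor of venular endothelium and red cells, lay at 0.691, 0.702, 1.21, 0.694 and 0.448 CPM in WT, at 0.618, 0.723, 0.67, 0.691 and 0.731 in HET and at 0.968, 1.45, 0.785, 1.25 and 1.64 in KO. The KO libraries were all above the HET libraries, and WT-720 lay within the KO range. Besides Cxcl12 it was the other member, of 26, whose KO libraries all exceeded HET, as did those of 2.18% of all genes. Differences of 0.688 ± 0.243 against WT (adjusted p = 0.0978) and 0.828 ± 0.243 against HET (adjusted p = 0.0797) did not pass in edgeR. The former was 0.937 ± 0.233 without WT-720 (adjusted p = 0.0455, edgeR) and 0.556 ± 0.248 without KO-739 (adjusted p = 0.194), and it passed in 1 of the 15 fits that left out a library. Ackr1 shares 25.7% of its exon bases with Cadm3 on the same strand, so part of its counts is uncertain.

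Ackr4, which scavenges Ccl19, Ccl21 and Ccl25, lay at 29.8, 31.2, 31.9, 32.8 and 38.1 CPM in WT, at 36.7, 40.4, 40.6, 38.1 and 37.5 in HET and at 32.6, 25.9, 33.6, 40.2 and 42.4 in KO. In HET against WT it had the smallest unadjusted p of the members, with a difference of 0.239 ± 0.106 and an adjusted p of 0.981 (edgeR). WT-726 reached into the HET range, and KO spanned both. Acad11, on the opposite strand, covers 8.9% of its exon bases. Ackr2 lay between 0.201 and 0.367 CPM in WT and between 0.251 and 0.597 in KO.

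**Figure D4:**
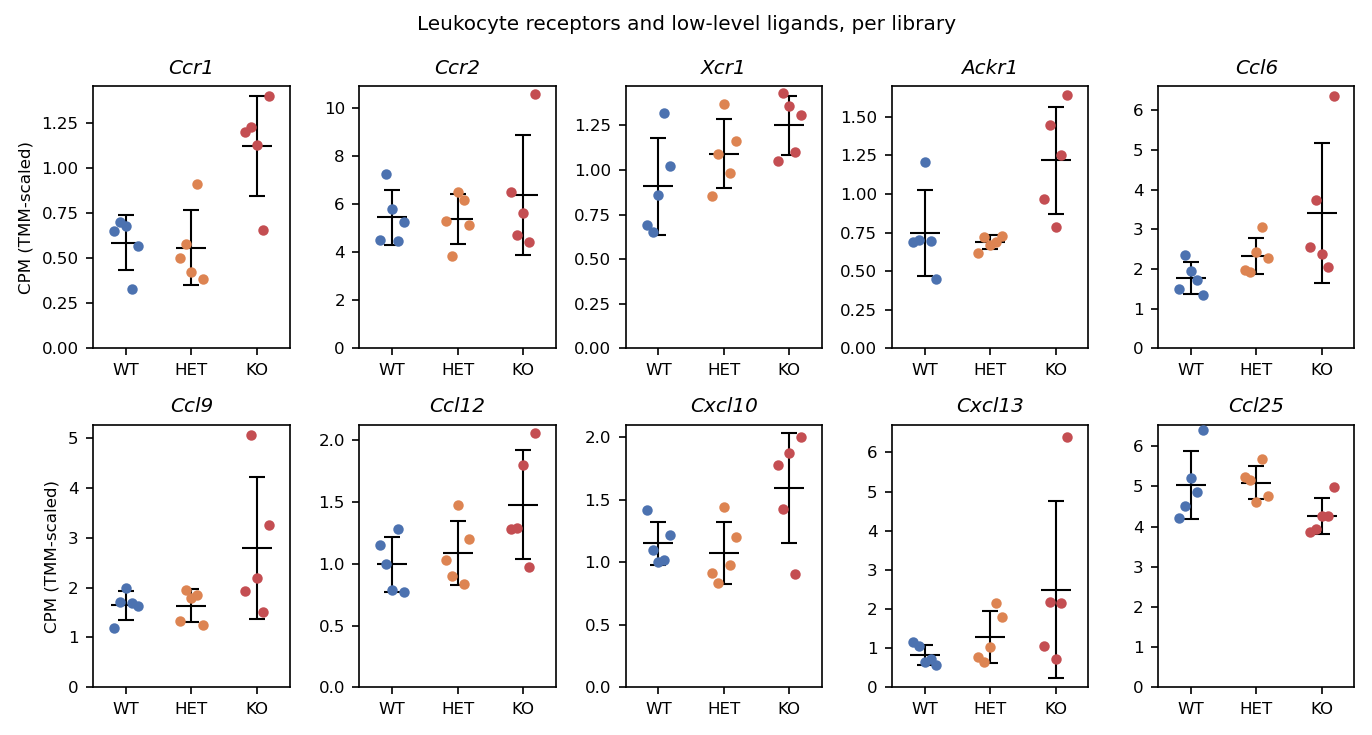
CPM of 10 lower members in each library, with the mean and SD of each genotype as bars and KO libraries in the order KO-694, KO-695, KO-696, KO-738 and KO-739. For Ccr1, 4 KO libraries lie above all WT and HET libraries and KO-738 does not, and Cxcl13, Ccl6 and Ccr2 are highest in KO-739.

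The myeloid ligands Ccl6 and Ccl9, which bind Ccr1, had large differences and a wide spread. Ccl6 lay at 1.5, 2.36, 1.96, 1.72 and 1.34 CPM in WT, at 1.97, 1.92, 2.43, 3.06 and 2.28 in HET and at 2.55, 3.75, 2.38, 2.04 and 6.36 in KO. All KO libraries but KO-738 exceeded every WT library, and KO-739 was far above the rest. Its difference was 0.948 ± 0.278 against WT (adjusted p = 0.055, edgeR), 1.09 without KO-738 (adjusted p = 0.0126) and 0.6 without KO-739 (adjusted p = 0.0994). Ccl9 lay at 1.19, 1.71, 2, 1.68 and 1.63 CPM in WT and at 1.94, 5.06, 2.19, 1.5 and 3.25 in KO, a difference of 0.768 ± 0.276 (adjusted p = 0.104, edgeR). Here KO-695 was highest, and the groups overlapped through KO-694 and KO-738. Without KO-738 the difference was 0.927 (adjusted p = 0.0221), without KO-739 0.709 (adjusted p = 0.164) and without KO-695 0.442 (adjusted p = 0.258).

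Ccl12, Ccl8 and Ccl7, monocyte chemoattractants encoded side by side on chromosome 11 with Ccl2 and Ccl11, did not pass. Ccl12 lay between 0.774 and 1.28 CPM in WT and between 0.971 and 2.06 in KO (0.569 ± 0.229, adjusted p = 0.142, edgeR). Ccl8 lay between 1.07 and 2.16 CPM in WT and between 1.43 and 3.94 in KO (0.523 ± 0.289, adjusted p = 0.294, edgeR; 0.214 without KO-739), and Ccl7 between 0.219 and 0.401 in WT and between 0.251 and 0.542 in KO. In each the groups overlapped. Ccl11 lay at 1.5, 1.6, 1.64, 1.57 and 2.16 CPM in WT and at 0.89, 1.17, 0.67, 1.41 and 3.13 in KO, so 4 KO libraries were below every WT library and KO-739 was above them all. Its difference was -0.221 ± 0.338, and -0.715 ± 0.247 without KO-739 (adjusted p = 0.1, edgeR).

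Of the CXC ligands induced in inflamed or lymphoid tissue, 3 were tested. Cxcl10, an interferon-induced ligand of Cxcr3, lay at 1.42, 1.1, 1, 1.02 and 1.22 CPM in WT and at 1.78, 1.43, 1.87, 0.908 and 2 in KO. The 4 KO libraries other than KO-738 were above every WT library, and the difference was 0.469 ± 0.213 (adjusted p = 0.193, edgeR). Cxcl13, which draws B cells through Cxcr5, lay at 1.15, 1.05, 0.643, 0.731 and 0.57 CPM in WT, at 0.765, 0.651, 1.02, 2.15 and 1.81 in HET and at 1.05, 2.18, 0.716, 2.16 and 6.39 in KO. It had the largest fitted difference of the members, 1.59 ± 0.532 (adjusted p = 0.0848, edgeR), which fell to 0.882 ± 0.405 without KO-739 (adjusted p = 0.21). Cxcl13 passed with DESeq2 and with the number range as a term, and in 0 of 15 fits that left out 1 library. Cxcl16, the membrane-bound ligand of Cxcr6, ranged from 0.115 to 1.05 CPM within WT and from 0.253 to 1.94 within HET, and 18.3% of its exon bases lie under Zmynd15 on the opposite strand.

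The epithelial and homeostatic CC ligands showed small differences. Ccl25, a ligand of Ccr9 and of the scavenger Ackr4, lay at 4.22, 4.51, 5.22, 4.86 and 6.4 CPM in WT, at 5.23, 5.17, 4.62, 5.68 and 4.77 in HET and at 3.87, 3.94, 4.27, 4.26 and 4.99 in KO. The KO difference was -0.241 ± 0.116 against WT (adjusted p = 0.223) and -0.256 ± 0.116 against HET (adjusted p = 0.222), neither past the threshold in edgeR. Ccl27a lay between 5.34 and 7.07 CPM in WT and between 4.09 and 7.74 in KO, Ccl28, a mucosal ligand of Ccr10, between 1.15 and 2 in WT and between 1.24 and 2.93 in KO, and Ccl17 between 0.499 and 0.893 in WT and between 0.559 and 1.25 in KO. All these ranges overlapped. Reads of Ccl27a and its near copy Ccl27b cannot be told apart with certainty.

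KO against HET gave 1 member higher, Cxcl12, and 0 lower, while 1.61% of all genes were higher and 0.351% lower. The log2 fold change was above 0 in 20 of 26 members, against 47.5% of all genes, with a median of 0.328. This comparison uses the KO libraries that KO against WT uses. In HET against WT 0 members were called (edgeR, DESeq2 and limma voom alike), as were 0% of all genes in edgeR, and 1 member stood at an unadjusted p under 0.05, against 4.4% of all genes. In 0 members did the HET libraries lie wholly above or below WT, as they did in 0.717% and 0.325% of all genes. The fold change was above 0 in 12 of 26 members, against 52.8% of all genes, with a median of -0.00773.

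The number of members called changed most when KO-738 was left out. Without it, 7 of 27 tested members were higher in KO than in WT (among them Ccl12, Ccl6, Ccl9, Ccr1, Cxcl10 and Cxcl12) and 0 lower, while 9.75% of all genes were higher and 5.21% lower. The fold change was above 0 in 22 of 27 members (47.4% of all genes). Against HET, 5 members were higher without it (among them Ccl9, Ccr1, Cxcl10 and Cxcl12), and 0 lower, with 7.91% of all genes higher and 4.59% lower, and 22 of 27 members were above 0 (49.9% of all genes). KO-739 held the highest value of 14 of the 26 tested members and of 13.5% of all tested genes. Without it Cxcl12 was the 1 member called against WT (0.362, adjusted p = 0.00778, edgeR), as it was when any 1 library other than KO-738, HET-718 or WT-720 was left out.

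Members with low counts in all libraries included both ligands and receptors of some axes. Neutrophil-directed genes were among them: Cxcl1 had 78 counts over the 15 libraries, Cxcl5 14, Cxcl2 11 and Cxcr2 7, and Cxcl3 and Cxcr1 had 0. In the lymph node axis, Ccr7 had 51 counts and its ligand Ccl19 24. Its ligands Ccl21a, Ccl21b, Ccl21c and Ccl21d had 3, 1, 1 and 0. These are near-identical copies whose reads cannot be told apart with certainty, so their counts do not settle the level of Ccl21. Receptors of tested ligands also stayed under the test: Ccr10 had 120 counts, Cxcr3 111, Ccr9 71, Cxcr5 45, Ccr4 22 and Ccr3 5. Ccl24 and Cxcl9 had 135 counts each, Ccl2 125, Ccl5 119 and Ccl22 96, and Xcl1, the ligand of Xcr1, had 49. The 4 members at 0 in every library were Ccl21d, Ccl26, Cxcl3 and Cxcr1. A count of 0 allows up to 3 counts, or 0.0715 to 0.148 CPM depending on the library, for counting error only.

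Counted over whole chromosomes, 14 members lie on chromosome 11, 12 on chromosome 9 and 11 on chromosome 5, some of them in gene clusters. On chromosome 9, Ccr9, Cxcr6, Xcr1, Ccr1, Ccr3 and Ccr2 lie between positions 123767211 and 124109140 (GRCm38.p6). All 7 tested members of chromosome 9 were above 0 in KO against WT, with a median log2 fold change of 0.456, as were 5 of 7 on chromosome 11, with a median of 0.523. The share above 0 over all tested genes was 46.8%. The tested members of chromosome 9 include Ackr2 and Ackr4, which lie outside that stretch, and those of chromosome 11 include Cxcl16, which lies apart from the Ccl genes.

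Other genes that handle chemokines were counted as lists, to be read against the 4.4% of all tested genes that were higher in KO than in WT and the 1.6% that were lower. Of the chemokine-related genes outside the symbol rule, 4 of 8 tested were higher in KO than in WT and 0 lower: Cx3cr1, Cmklr1, the chemerin receptor (0.895), its ligand Rarres2 (0.385) and Cd74, a receptor of Mif (0.494). Of the receptor signalling genes 3 of 30 were higher, namely Arrb1, a beta-arrestin (0.473), Rgs2, a regulator of G protein signalling (0.462), and Grk5, a receptor kinase (0.421), and the list's median was 0.0526. Of the inducing cytokines and NF-kB genes 2 of 18 were higher, the tumour necrosis factor receptors Tnfrsf1a (0.284) and Tnfrsf1b (0.25). In that list Tnf, Il6, Il17a, Ifng, Lta and Ltb had under 3 counts in every library. Of the genes for heparan sulfate, on which chemokines are held, 1 of 13 was higher, the sulfotransferase Ndst1 (0.289). In none of these lists was a gene lower.

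Markers of macrophages, fibroblasts and blood endothelium, cells that make or answer chemokines, were in part higher in KO than in WT. Those of T and natural killer cells, dendritic cells and neutrophils were not called, as given below. The marker counts, here and for the remaining lists, are to be read against the same shares of all tested genes, 4.4% higher and 1.6% lower. For KO against WT, 7 of 14 macrophage markers were higher and 0 lower (Csf1r 0.65, Ctss 0.522, Lyz2 1.01 and Tyrobp 0.594 had the smallest p). Their summed level was 145 to 168 CPM in WT, 165 to 186 in HET and 169 to 258 in KO. The mean log2 level of these markers relative to WT was 0.0467 in KO-738 and between 0.577 and 0.713 in the other KO libraries. It was at most 0.131 in WT and 0.213 in HET. KO-738 was also the KO library that did not exceed the WT libraries for Ccr1 and Cxcl10. For other members, Cxcl13, Ackr1 and Ccl17 among them, KO-738 did exceed every WT library (2.16, 1.25 and 1.25 CPM). Fibroblast markers, from cells known to make Cxcl12, were higher in 6 of 9 (Col1a2 0.91, Col3a1 0.829, Dpt 0.893, Col1a1 0.839). Their sums were 1090 to 1430 CPM in WT, 1240 to 1490 in HET and 1300 to 2490 in KO. Their relative level was 0.0745 in KO-738 against 0.656 to 1.09 in the other KO libraries. Blood endothelial markers were higher in 8 of 10 (Cdh5 0.848, Vwf 0.541, Robo4 0.743, Pecam1 0.886). Their sums were 134 to 178 CPM in WT, 145 to 203 in HET and 208 to 282 in KO, and their relative level was 0.384 in KO-738. Against HET, 2 of 14 macrophage, 2 of 9 fibroblast and 6 of 10 blood endothelial markers were higher in KO and 0 lower. Over all tested genes 1.61% were higher and 0.351% lower in that comparison. Cxcl12 in KO-738, at 72.3 CPM, was the lowest of the KO libraries and above all WT and HET libraries. In whole tissue, more cells of a type and more RNA per cell cannot be told apart, and the part of these cells in the members' differences was not tested.

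Of the remaining marker lists, 3 of 4 lymphatic endothelial markers were higher in KO (Lyve1, Flt4 and Prox1), 2 of 3 B cell markers (Cd79b and Ighm; list median 1.45, and 1.35 for HET against WT with 0 called), 2 of 4 mesothelial (Wt1 and Msln) and 1 each of 5 mast cell and eosinophil (Tpsb2), 7 smooth muscle and pericyte (Pdgfrb), 7 germ cell (Ddx4) and 14 principal cell markers (Spag11b). None passed among 5 T and natural killer, 4 dendritic, 2 neutrophil, 6 adipocyte, 5 skeletal muscle, 3 red cell, 3 basal and 3 clear cell markers, and 0 markers of any list were lower. The adipocyte markers had a median log2 fold change of 2.16, with 6 of 6 above 0, and the skeletal muscle markers one of 5.82, the highest library being KO-695 for the former and KO-739 for the latter. KO-695 was also the highest library for Ccl9 and Cx3cl1, and the part of fat tissue in those values was not tested. Of the neutrophil markers, Elane, Ngp and Retnlg had under 3 counts in every library.

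**Figure D5:**
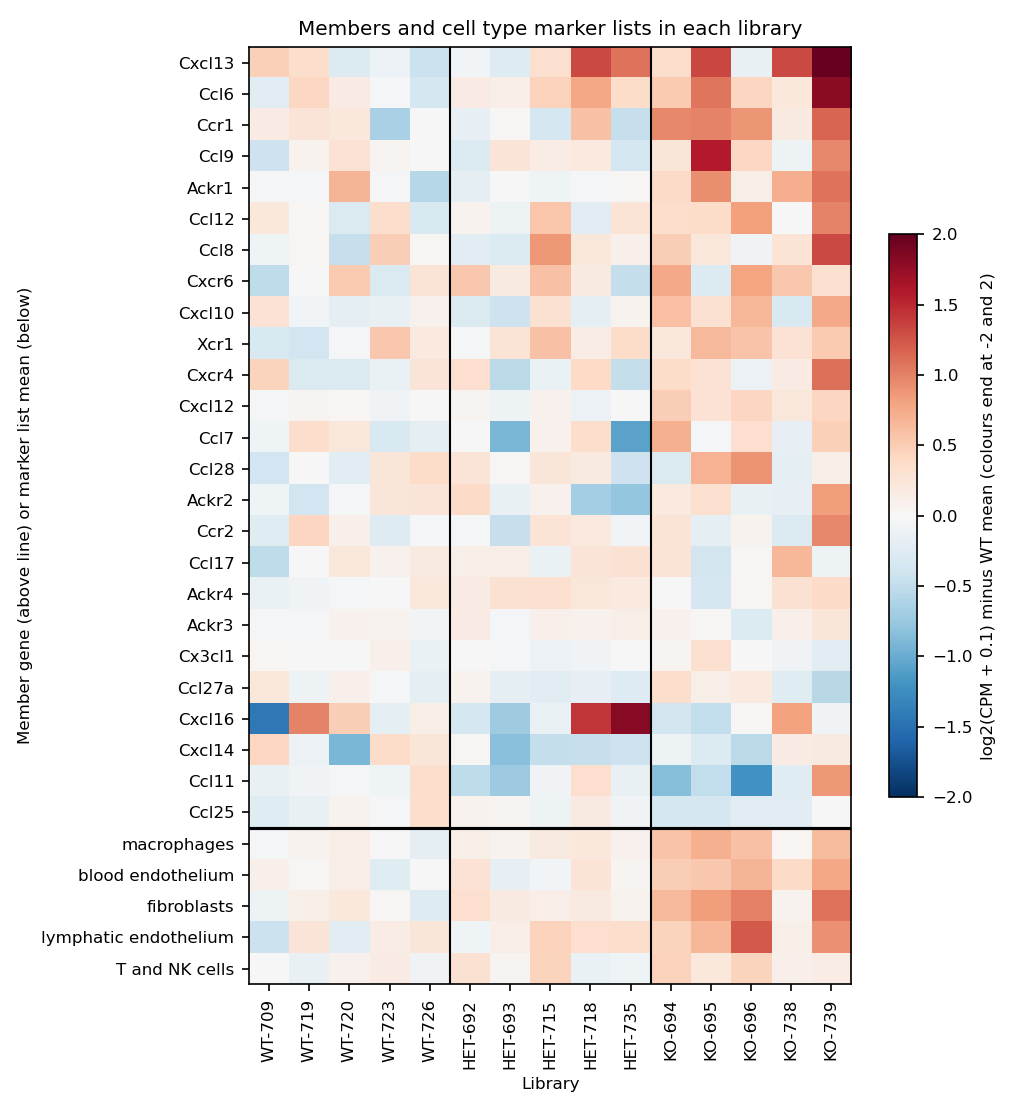
Log2(CPM + 0.1) of 25 of the 26 tested members (above the line) and mean of 5 marker lists (below it) in each library, relative to the WT mean, with colours ending at -2 and 2. KO-694, KO-695, KO-696 and KO-739 are red for the macrophage, endothelial and fibroblast markers and for Ccr1, and KO-738 is pale for all of these but the blood endothelium.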

How the data were processed

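The deposited values were raw read counts per NCBI Gene ID in 15 libraries. Per the submitters' processing notes, build GRCm38.p6, the aligner HISAT2 2.0.5, FastQC and, for counting, featureCounts from Subread 1.4.6p5 were used by the authors; the strand setting of counting is not given in the sources used here, so overlapping and antisense genes are uncertain. IDs were named through a RefSeq table of GRCm38.p6 (96.9% named, 1301 without a name, kept in library sizes). Exon lengths for TPM and coding sequences came from GENCODE M21, and promoter windows from RefSeq.

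Counts were tested with edgeR 4.0.16 in R 4.3.3 (TMM factors, filterByExpr by genotype, robust quasi-likelihood test) in 1 fit of 15 libraries with 12 residual degrees of freedom. P-values are two-sided, Benjamini-Hochberg adjusted across the 19388 tested genes, and called under 0.05. The common biological coefficient of variation was 16.3%. CPM used TMM library sizes. Intervals of log2 fold changes are 95% intervals of the fit. The list scores used a pseudocount of 0.1 CPM. The procedure was tested on simulated data. No 2 libraries of a genotype agreed within sampling noise.

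The members, gene lists and tests were chosen with earlier results of these data known. Members past the threshold or with a mean of at least 1 CPM in a genotype are named with values, except 1 that is not reported here by name and enters the counts only, and up to 4 genes past the threshold from each list. Alternatives were other scaling factors, a fit without the 20 most abundant genes, DESeq2 1.42.0, limma 3.58.1 voom, other filters, fits of 2 genotypes, the animal number range, sva 3.50.0, thinning, leaving out libraries with over 1% ribosomal RNA, and leaving out each library. Plots used Python 3.11.15 and matplotlib 3.10.9.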

Additional observations from a re-analysis of the deposited data

Results flagged for a closer look

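The values given here, 3 in all, lay far from the other 4 libraries of their genotype, the gap to the nearest being over 0.71 of the range. Chance gives such a value in about 1 of 20 groups, and 81 groups were checked. Cxcl13 was at 6.39 CPM in KO-739, against 2.18 in the next KO library. Ccl11 was at 2.16 CPM in WT-726, against 1.64 in the next WT library. Ccl27a was at 6.38 CPM in HET-692, against 5.39 in the next HET library.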

How the results depend on the processing

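The number of members called for KO against WT was 2 as reported. It was 0 with only animals numbered 700 and above, 1 with the 2 genotypes only, with no filter on low counts or with libraries thinned to the smallest total, 4 with upper quartile factors, 5 with DESeq2 and 6 without libraries over 1% ribosomal RNA. Leaving out 1 library gave 1 to 7. Over all genes tested, 18586 to 34343 in these fits, 853 were higher and 310 lower as reported. With animals numbered 700 and above 0 were called. With the number range as a term, 157 were higher and 20 lower. Of the members, Cxcl12 and Cxcl13 passed in that fit and Ccr1 did not. The numbers under 700 occur in HET and KO but not in WT. The 2 genotypes only gave 246 and 41, no filter 673 and 175, and thinning 675 and 233. Upper quartile factors gave 1019 and 253, DESeq2 1313 and 617, and leaving out libraries over 1% ribosomal RNA 1795 and 927. With 1 library left out, 258 to 1905 genes were higher and 60 to 1018 lower. For KO against HET it was 1 as reported, 0 with the 2 genotypes only or with animals numbered 700 and above, 3 with voom, 4 with DESeq2, 5 without libraries over 1% ribosomal RNA, and 0 to 5 with 1 library left out. Over all tested genes, 312 were higher and 68 lower as reported. The 2 genotypes only, and animals numbered 700 and above, gave 0. Voom gave 1098 and 854, DESeq2 877 and 365, and leaving out libraries over 1% ribosomal RNA 1013 and 647. With 1 library left out, 0 to 1546 genes were higher and 0 to 897 lower. Pathway and marker genes called for KO against WT numbered 42, against 0 with animals numbered 700 and above, 14 with the number range as a term, 21 with the 2 genotypes only, 69 without libraries over 1% ribosomal RNA, and 20 to 72 with 1 library left out. With animals numbered 700 and above, which leaves 2 KO libraries, Plag1 was at -0.449 and did not pass. The causes were not tested beyond the fewer libraries or genes of these fits.

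Among members without a call in KO against WT, direction changed as follows. With 1 surrogate variable, Ccr2 was at -0.0734, Ackr3 at -0.0196 and Ackr4 at -0.0207, and voom gave -0.00261 for Ackr3. Cx3cl1 was at -0.0806 with the number range as a term and at -0.148 with animals numbered 700 and above. Under the same settings Ccl11 was at 0.271 and 0.433, and with animals numbered 700 and above Cxcl14 was at 0.104 and Ccl28, 0.327 as reported, at -0.0568. Cxcl16 ran from -0.5 to 0.61 over the alternatives. With 1 library left out, Ccr2 ran from -0.0314 (without KO-739) to 0.353, Ackr3 from -0.0142 (without KO-739) to 0.112 and Cx3cl1 from -0.0607 (without KO-695; -0.0108 without WT-726) to 0.0807. For Cxcl12 in HET against WT the range was -0.0505 to 0.00465, the values without HET-693 (0.0012) and HET-718 being above 0, and without libraries over 1% ribosomal RNA it was 0.00123. With 1 surrogate variable Ccl11 was lower in KO (adjusted p = 0.0474). No paired analysis was possible because the genotypes share no replicate numbers. Low counts limit members such as Ccr1, Ackr1 and Cxcl13, and 35 members could not be tested at this depth.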
